A study of Mus musculus with 6 samples.

Results

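The microRNAs (miRNAs) miR-221 and miR-222 were followed in bone-marrow-derived macrophages of RBP-J knockout mice and of their controls. Both were taken from the array by exact match of the array's miRNA name, 2 of 611 mouse miRNAs. The knockout group was 3 samples from MxCre-RBP-Jf/f mice, with both Rbpj alleles floxed. The control group was 3 samples from MxCre-RBP-Jf/+ mice, with 1 floxed allele, although their titles call them WT. All donors were female C57BL/6 mice that carried the MxCre transgene and had received poly(I)-poly(C), and all macrophages were exposed to lipopolysaccharide (LPS), a bacterial cell-wall component, for 24 h. Ages are not given in the sources used here. The Mx promoter answers to interferon and is active in many cell types, so deletion was not limited to macrophages. The array does not measure Rbpj mRNA. The labels number the replicates and do not say whether each is its own mouse or culture, so the p-values measure the spread between these samples only, which may be technical.

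RBP-J binds DNA and passes the signal of activated Notch receptors on to their target genes. The study looked for miRNAs controlled by Notch when macrophages polarize. miR-221 and miR-222 are cut from 1 primary transcript of the X chromosome and share their seed, the stretch near the 5′ end that pairs with target mRNAs. They are best known as repressors of the cell-cycle inhibitor p27Kip1 and of the receptor KIT, and in LPS-tolerant macrophages they have been tied to the chromatin remodeller BRG1.

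The mature sequences show what the pair shares and where its members can be told apart. They are from RefSeq on build GRCm38.p6, with the seed (bases 2 to 8) in capitals. miR-1928 is the other entry of that table with the same seed, and it is not on this array.

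miR-221-3p: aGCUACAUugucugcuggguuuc

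miR-222-3p: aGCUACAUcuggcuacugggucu

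miR-1928: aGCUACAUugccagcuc

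miR-221-3p lies at chrX:19146307-19146329 and miR-222-3p at chrX:19146901-19146923, both on the minus strand. The first 8 bases are the same, and 11 of 23 positions match without gaps. After the shared start the longest common run is 6 bases. The hairpins are shown next, with the mature arm in capitals. They are separated by 504 bases, and on the minus strand Mir222 comes first.

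Mir221: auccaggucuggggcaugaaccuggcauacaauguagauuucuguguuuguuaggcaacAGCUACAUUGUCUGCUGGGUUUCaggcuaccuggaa

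Mir222: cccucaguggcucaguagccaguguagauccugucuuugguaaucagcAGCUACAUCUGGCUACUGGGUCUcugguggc

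The hairpins lie at chrX:19146294-19146388 and chrX:19146893-19146971. The array names used here are mmu-miR-221 and mmu-miR-222, without an arm, and the passenger strands are not among its 611 mouse names.

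Both miRNAs were well measured on every array. Each had 2 probes with 10 spots each, which made 240 spots over the 6 arrays, and 240 were well above background while 0 were saturated. Median spot signals per probe and array ran from 134.1 to 720.8 intensity units over a local background of 18.5 to 21. Of the 240 spots, 12 were flagged as outliers and left out, 10 of them for miR-222. Among the 228 spots kept, the coefficient of variation between spots of 1 probe on 1 array had a median of 2.58% and a maximum of 8.44%. The scanner software's own error for the totals was 7.32% to 7.41%.

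miR-221 gave less signal on knockout than on control arrays before any scaling. Its total signal was 409.5, 441.5 and 347.5 intensity units in knockout replicates 1, 2 and 3, against 744.6, 738.4 and 670.3 in control replicates 1, 2 and 3. Every knockout array lay below every control array (399.5 ± 47.8 and 717.8 ± 41.2, SD, n = 3 each; ratio 0.557; two-sided exact permutation p = 0.1). With 3 arrays per genotype, 0.1 is the smallest p this test can give.

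miR-222 differed in the same direction and less. Its totals were 323.6, 236.0 and 263.4 units in the knockout replicates, against 356.6, 328.4 and 397.6 in the control replicates. The groups also did not overlap, by a margin of less than the spread within either group (274.4 ± 44.8 and 360.9 ± 34.8, SD, n = 3 each; ratio 0.76; exact permutation p = 0.1). Unscaled totals of 43 of 165 detected miRNAs (26.1%) lay lower in all knockout arrays in the same way. With no scaling between arrays, limma gave -0.86 (SE 0.17, unadjusted p = 0.00107, adjusted p = 0.136) for miR-221, the smallest unadjusted p of 135 miRNAs, and -0.43 (SE 0.19, adjusted p = 0.26) for miR-222. In that fit 26 miRNAs (19.3%) were lower in knockout at an unadjusted p under 0.05 and 0 (0%) passed at an adjusted p of 0.05. For the totals, the median knockout to control ratio of all 165 was 0.812, and 7 miRNAs had a lower ratio than miR-221, against 58 for miR-222.

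The knockout arrays were dimmer as a whole. Summed miRNA signal was 52659 ± 6669 units in knockout and 68659 ± 7653 in control (SD, n = 3 each; exact permutation p = 0.1). The 75th percentile of detected probes was 213.0 ± 23.2 and 294.2 ± 55.1 units (SD, n = 3 each; exact permutation p = 0.1). Among the 7 kinds of control spot, mr_1 was the 1 whose groups did not overlap (737.2 ± 61.5 units in knockout and 848.0 ± 73.2 in control, SD, n = 3 each; exact permutation p = 0.1). The 4 hur kinds and the bright corner had lower means in knockout with overlapping groups (ratios 0.626 to 0.834; exact permutation p = 0.2 to 0.9), and the dark corner had a ratio of 1.08 (exact permutation p = 1). The number of miRNAs well above background did not separate the genotypes (132 ± 7.81 and 133.3 ± 4.51, SD, n = 3 each; exact permutation p = 0.8). Values are therefore also given after each array was divided by that percentile, on the log2 scale. In total RNA, fewer cells that express a miRNA and less of it per cell cannot be told apart.

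After scaling, the knockout mean of miR-221 stayed below the control mean, while miR-222 had nearly the same mean in both genotypes. The log2 signal of miR-221 was 0.81, 1.21 and 0.57 in knockout replicates 1, 2 and 3, against 1.32, 1.55 and 0.92 in the control replicates. In words, 2 knockout arrays lay below all controls, and knockout replicate 2 lay within their range. The difference was -0.40 (SE 0.23, 95% interval -0.93 to 0.13), a knockout signal 0.756 times that of control, and limma did not call it (unadjusted p = 0.118, adjusted p = 0.637 over 135 miRNAs).

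For miR-222 the log2 signal was 0.43, 0.24 and 0.13 in the knockout replicates, against 0.22, 0.36 and 0.13 in the control replicates. The groups overlapped along most of their range. The difference was 0.03 (SE 0.16, 95% interval -0.34 to 0.40), with limma's adjusted p = 0.96. The interval leaves room for a knockout signal between 0.791 and 1.32 times that of control.

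**Figure D1:**
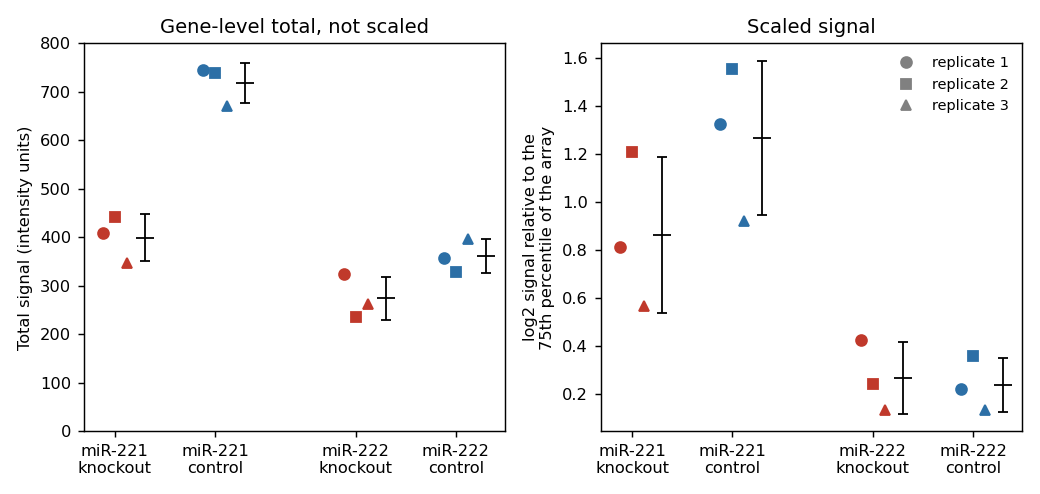
Signal of miR-221 and miR-222 on each array, with points as arrays, bars as mean ± SD over 3 arrays, knockout in red and control in blue. Left, gene-level totals in intensity units, where knockout miR-221 lies at 347.5 to 441.5 units and control miR-221 at 670.3 to 744.6. Right, log2 signal relative to the 75th percentile of the array, where the groups overlap for both miRNAs.

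The other miRNAs of the array set the background for both values. Of the 135 miRNAs detected on at least 3 arrays, 0 were called by limma between genotypes at an adjusted p of 0.05 (0%), and 6 (4.44%) had an unadjusted p under 0.05. The groups did not overlap for 14 (10.4%), and neither member is among these 14. A fitted difference below 0 was found for 38 (28.1%), with miR-221 among them. The median tested miRNA stood at 0.11, so miR-221 lay 0.51 below the median and miR-222 lay 0.08 below it. Of the 135 miRNAs, 5 had a lower difference than miR-221, while 48 had a lower one than miR-222. Leaving out single arrays moved the first count to between 1 (without knockout replicate 2) and 12 (without knockout replicate 3), and without control replicates 2 and 3 it was 9 and 3.

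**Figure D2:**
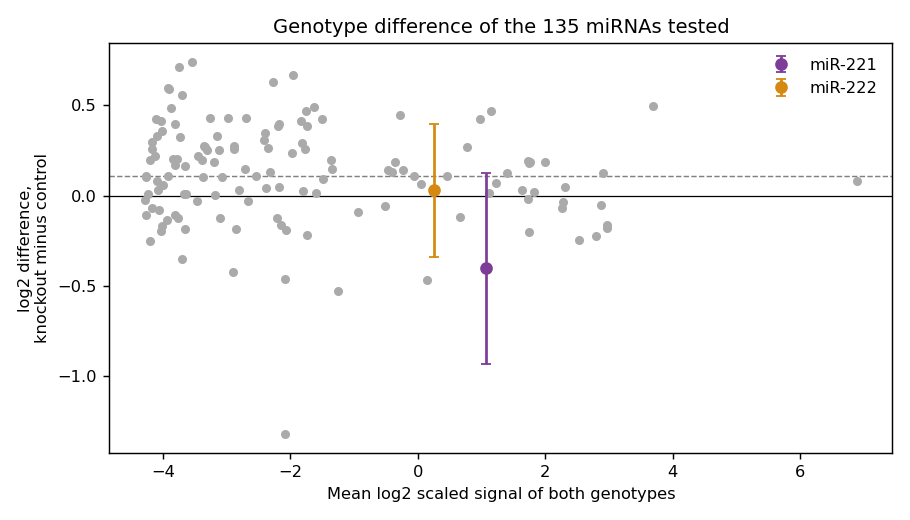
Log2 difference of knockout minus control against mean log2 scaled signal for the 135 miRNAs tested (grey points), with 95% intervals for miR-221 and miR-222. The dashed line is the median difference of 0.11; miR-221 lies at -0.40 and miR-222 at 0.03, and both intervals include 0.

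The ratio of miR-221 to miR-222 within an array does not move when all signals of the array are divided by 1 constant. Its level depends on the probes and is no ratio of molecules, so it is compared only between arrays. The ratio was 1.31, 1.96 and 1.35 in knockout replicates 1, 2 and 3, against 2.15, 2.29 and 1.73 in the control replicates. Knockout replicates 1 and 3 lay below all controls, and knockout replicate 2 lay between control replicate 3 and control replicate 1. On the log2 scale the ratio averaged 0.60 ± 0.32 in knockout and 1.03 ± 0.21 in control (SD, n = 3 each). The difference of -0.43, a factor of 0.741, gave a two-sided exact permutation p = 0.2, so a separate behaviour of the 2 miRNAs was not shown by this test. Quantile scaling, which does not divide by a constant, gave a difference of -0.40. Without knockout replicate 2 the difference was -0.62, and without knockout replicate 1 it was -0.33.

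The ratio computed from the gene-level totals gave 1.27, 1.87 and 1.32 in the knockout replicates and 2.09, 2.25 and 1.69 in the control replicates. The authors' series matrix gave a log2 ratio of 0.33, 0.95 and 0.29 in knockout and 1.07, 1.07 and 0.78 in control. Differences were -0.45 from both sources (exact permutation p = 0.2 each). In that matrix miR-221 has the same value, 9.42, in control replicates 1 and 2, and miR-222 shares 8.35 there and 8.27 in knockout replicates 2 and 3.

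The gap between the 2 probes of a miRNA was steady across the arrays. The brighter probe of miR-221 (A_54_P3830) exceeded the dimmer one (A_54_P2640) by 0.86, 0.80 and 0.90 log2 units in the knockout replicates and by 0.83, 0.80 and 0.85 in the control replicates. For miR-222 the brighter probe (A_54_P2644) exceeded the dimmer one (A_54_P2643) by 0.74, 0.72 and 0.79 in knockout and by 0.75, 0.76 and 0.76 in control. These probe differences had an SD over 6 arrays of 0.04 for miR-221 and 0.02 for miR-222. The log2 ratio between the miRNAs had an SD of 0.34 over the same arrays, 8.9 and 14.5 times as large. The spread of the ratio between arrays was thus larger than that of the gap between probes, and it was present within each genotype, where the ratio had an SD of 0.32 in knockout and 0.21 in control.

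The dimmer probe of each miRNA gave a difference close to that of the brighter one, which is by rule the value of the miRNA used above. In a limma fit over 251 detected probes, the miR-221 probes differed by -0.40 (A_54_P3830, SE 0.23) and -0.43 (A_54_P2640, SE 0.25), each with an adjusted p = 0.617. The miR-222 probes differed by 0.03 (A_54_P2644, SE 0.16, adjusted p = 0.947) and 0.04 (A_54_P2643, SE 0.16, adjusted p = 0.929). The 4 ratios of a miR-221 probe to a miR-222 probe differed between genotypes by -0.47 to -0.43, with an exact permutation p = 0.2 for each.

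**Figure D3:**
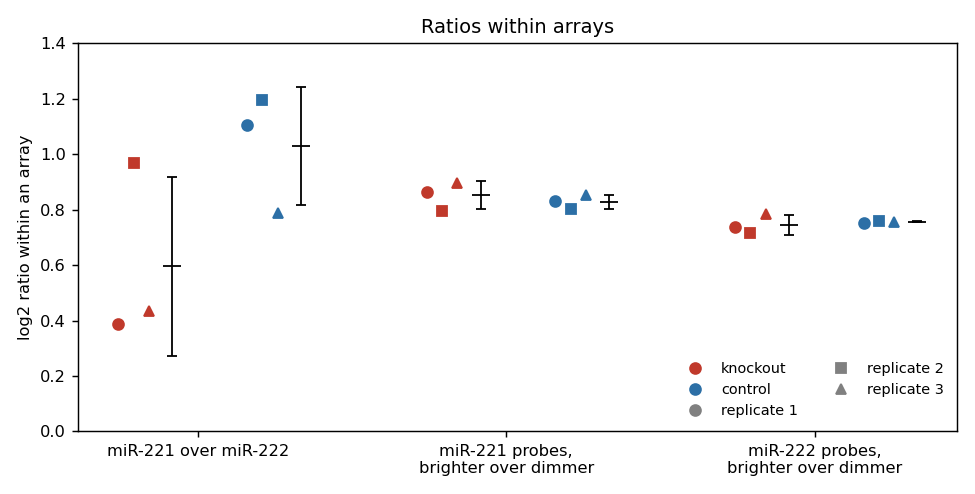
Log2 ratios within each array, with points as arrays and bars as mean ± SD over 3 arrays. The ratio of miR-221 to miR-222 spans 0.39 to 1.20 over the 6 arrays, while the difference between the probes of 1 miRNA spans 0.80 to 0.90 for miR-221 and 0.72 to 0.79 for miR-222.

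Although the 2 miRNAs share a transcript, a relation between them over the arrays was not shown. Over the 6 arrays the scaled log2 values gave Pearson's r = 0.35 (exact permutation p = 0.486) and Spearman's rho = 0.37 (exact permutation p = 0.497), the only relation tested. Without the 2 arrays farthest from the median of miR-221, knockout replicate 3 and control replicate 2, r was -0.41 over 4 arrays; leaving out the extremes of miR-221 narrows its range. Leaving out single arrays gave 0.90 without knockout replicate 1 and 0.02 without knockout replicate 3. Without scaling r was 0.72 and with quantile scaling -0.22, so its sign depends on the scaling. Deviations from the genotype means gave r = 0.55 over the 6 arrays, and each genotype has 3 arrays, too few for a value of its own. Among the 134 other tested miRNAs, 37 followed miR-221 more closely than miR-222 did, and 37 followed miR-222 more closely than miR-221 did.

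The miRNAs whose array profile was most like that of miR-221 were miR-23b (r = 0.97), miR-23a (r = 0.96), miR-22 (r = 0.93), miR-16 (r = 0.80) and miR-24 (r = 0.78). These r values describe 6 arrays that share scaling and carry no test. miR-23a and miR-23b are near-identical paralogs whose probes may share signal, and miR-24 is their cluster mate. Of the 5, miR-23b had log2 signals of 2.43, 2.64 and 2.15 in the knockout replicates and 2.70, 2.76 and 2.49 in the control replicates, with knockout replicate 3 lowest and control replicate 2 highest, as for miR-221. Its difference was -0.25 (SE 0.18, limma adjusted p = 0.637).

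For miR-222 the most alike were miR-365 (r = 0.75), miR-155 (r = 0.74), miR-290-5p (r = 0.74), miR-21 (r = 0.72) and let-7i (r = 0.72). miR-155 and miR-21 are induced in LPS-activated macrophages, and their differences were -0.04 (SE 0.20) and 0.08 (SE 0.17). miR-365 and miR-290-5p had mean log2 signals of -3.19 and -4.11 in knockout and -3.44 and -4.31 in control, close to the floor of -4.32, so their likeness rests on dim values. With quantile scaling r to miR-221 was 0.79 for miR-23b, 0.74 for miR-23a, 0.65 for miR-16, 0.46 for miR-24 and 0.37 for miR-22. In that scaling r to miR-222 was 0.85 for miR-365, 0.84 for miR-290-5p, 0.42 for let-7i and 0.14 for miR-155, while miR-21 took 1 value on all arrays and has no r.

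**Figure D4:**
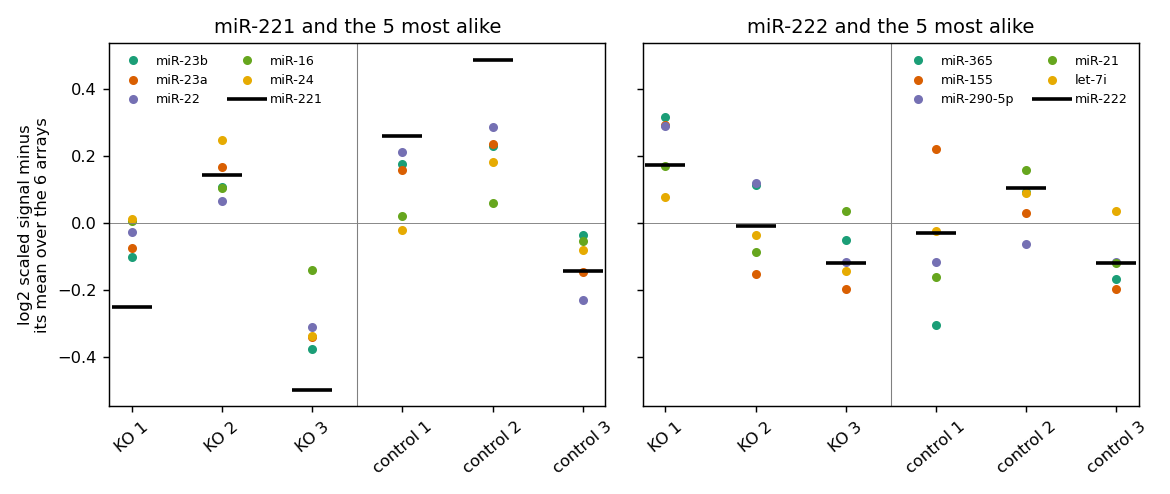
Log2 scaled signal on each array minus its mean over the 6 arrays, for miR-221 (left, black bars) and miR-222 (right, black bars) with the 5 miRNAs of highest Pearson r to each (coloured points). KO is knockout, and on the left all 6 are lowest in knockout replicate 3. Before the mean was taken off, the log2 scaled signal ran from 0.57 to 1.55 for miR-221 and from 0.13 to 0.43 for miR-222.

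Some neighbouring miRNA genes gave a scale for the ratio of the pair. From the RefSeq table, 8 other pairs of tested miRNAs within 1000 bases of each other on the same strand were compared. The set was chosen after the values of miR-221 and miR-222 were seen. It does not hold every pair of tested neighbours, since miR-24, the cluster mate of miR-23a and miR-23b, is in none of them. The log2 ratio of the 8 pairs had an SD over the 6 arrays of 0.14 to 0.60, with a median of 0.26, against 0.34 for miR-221 over miR-222. Their r ran from -0.81 to 0.94 with a median of 0.59. The pairings of miR-106b, miR-25 and miR-93 all come from 1 cluster and are not separate loci. They had the smallest SDs, 0.14 to 0.18, with r of 0.72 to 0.87, so both medians lean on that cluster. The genotype difference of the log2 ratio of the 8 pairs ran from -0.22 to 0.45. Among these 8 pairs, miR-188-5p over miR-532-3p was the 1 with a larger absolute difference than the pair described here. Tested neighbours outside the set were not compared in this way. The ratio of miR-188-5p to miR-532-3p rests on signals detected on as few as 3 arrays. miR-532-5p, the other arm of that hairpin, is not in the set. It was detected on all 6 arrays and differed by -0.13 (SE 0.22), against 0.38 (SE 0.24) for miR-188-5p.

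Other X-linked miRNAs did not share a direction. Of 65 further array names that the RefSeq table places only on the X chromosome, 10 were tested. Of these, 5 had a fitted difference above 0 and 5 below, and 0 were called (median -0.02, against 0.11 for all tested). Of all 135 miRNAs tested, 38 (28.1%) had a fitted difference below 0. miR-532-5p, from the hairpin of the listed miR-532-3p, is not among the 65 names and differed by -0.13 (SE 0.22). Among the 10, the smallest p-values were those of miR-322 at -0.42 (SE 0.26) and miR-188-5p at 0.38 (SE 0.24), with limma's adjusted p = 0.637 each. miR-223, a myeloid miRNA that is also X-linked in the mouse, differed by -0.22 (SE 0.28).

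The list of miRNAs that respond to LPS or NF-κB had 7 tested members of 9, with 0 called (median 0.08). miR-125b-5p, known to fall in LPS-treated macrophages, differed by -0.19 (SE 0.18) and miR-146b, which dampens Toll-like receptor signals, by -0.12 (SE 0.16). The miRNAs tied with the pair to haematopoietic progenitor and cell-cycle control had 8 tested members of 10, with 0 called (median 0.03). In that list miR-34a, a target of p53, differed by 0.43 (SE 0.19, limma adjusted p = 0.637) and miR-92a, of the miR-17 polycistron, by 0.26 (SE 0.25). None of the tested members of these 3 lists had an unadjusted p under 0.05. No tested member of the LPS or the cell-cycle list had a difference below that of miR-221.

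The markers listed as macrophage and myeloid were present, and most of those listed for other cell types were not detected. Absence was the common state on this array. Of its 611 mouse miRNAs, 452 were detected on none of the 6 arrays. The 4 markers of the macrophage and myeloid list were detected, with summed scaled signal of 11.6 to 14.6 in knockout and 9.86 to 15.8 in control. Whether they are particular to myeloid cells was not tested. miR-223 averaged 2.68 ± 0.28 log2 units in knockout and 2.90 ± 0.53 in control, and miR-142-3p 1.83 ± 0.36 and 1.65 ± 0.21 (SD, n = 3 each). miR-221 and miR-222 are also abundant in endothelial, stromal and progenitor cells. The 2 endothelial markers (miR-126-3p and miR-126-5p), the 6 stromal ones (miR-143 among them), the 3 erythroid or platelet ones (miR-451 among them) and the lymphoid miR-150 were at the floor on all 6 arrays. Of 5 progenitor markers 3 were tested and 2 (miR-130a and miR-196b) were at the floor on all arrays, and the summed scaled signal of the list was 0.653 to 0.672 in knockout and 0.512 to 0.67 in control. The tested markers did not share a direction. miR-10a, named after its values were seen, averaged -1.38 ± 0.08 log2 units in knockout and -1.87 ± 0.45 in control (SD, n = 3 each), with overlapping groups and a difference of 0.49 (SE 0.23, limma unadjusted p = 0.0658, adjusted p = 0.637). The differences of miR-125b-5p, which is in the LPS list too, and miR-99a were -0.19 (SE 0.18) and -0.11 (SE 0.16). The part of such cells in the values of the pair was not tested.

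The principal components of the 135 miRNAs set knockout replicate 2 apart on the first (4.72, against -2.05 to 0.38 for the others) and control replicate 1 on the second (4.52, against -1.85 to -0.28). Without both arrays, a choice made after seeing the data, miR-221 differed by -0.55 (limma adjusted p = 0.611) and the log2 ratio of miR-221 to miR-222 by -0.58. All arrays lay on 1 slide. Between the 4 arrays of slide column 1 the miR-221 difference was -0.43, and between the 2 arrays of column 2 it was -0.36. With the column as a block limma's adjusted p was 0.58 for miR-221 and 0.951 for miR-222. For miR-222 these column differences were 0.05 and -0.0011. The log2 ratio differed by -0.47 in column 1 and by -0.35 in column 2, the same direction in both. Slide rows each held 1 genotype, rows 2 and 4 knockout and rows 1 and 3 control. With the row as a random block, chosen after seeing the data, miR-221 differed by -0.42 (SE 0.18, limma adjusted p = 0.267). The estimated correlation within rows was -0.52, below 0, which makes the SE smaller than the 0.23 found without the block; the block lies within genotype and does not separate row from genotype. Over all alternatives the adjusted p ran from 0.136 to 0.941 for miR-221 and from 0.26 to 1 for miR-222, and the plot of all settings shows the differences.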

How the data were processed

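Total RNA (0.5 ug) was labelled with Cy3 and hybridised to 1-colour Agilent miRNA arrays, 1 per sample. Spot intensity values were deposited after background subtraction and detrending with Agilent's software, whose version is 10.5.1.1 in the deposited file headers and 9.1 in the submitters' processing notes. Gene-level intensity totals were deposited from the same software. The authors' deposited series matrix holds values that correlate at 0.999 with log2 totals, so its scale is log2. Its array medians are 0 to 0.03. All arrays share a maximum of 14.74, and some values of miR-221 and miR-222 repeat between arrays, as quantile scaling would give. No source used here says how it was made.

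Flagged spots were left out, the median was taken per probe, and each array was divided by its 75th percentile over 200 probes well above background on all 6 arrays. Values were raised to a floor of -4.32 (log2), the 5th percentile of detected signals. The brightest probe stood for a miRNA. A miRNA detected on at least 3 arrays was tested with limma 3.58.1 in R 4.3.3, knockout minus control, Benjamini-Hochberg at 0.05. The normexp alternative (offset 50) used the median spot signal. The number of arrays limits the precision, and the fit was tested on simulated data. Of 611 names 393 matched RefSeq (GRCm38.p6). Named miRNAs were the pair, same-seed and passenger entries, the 5 most alike by r, 2 per list by p, and defining markers. Members and lists were chosen with earlier results of these data known.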

Additional observations from a re-analysis of the deposited data

How the results depend on the processing

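The miR-221 difference was below 0 in all 26 alternatives run and not called in the 24 that give a test (-0.86 with no scaling between arrays to -0.26; smallest adjusted p = 0.136). Leaving out single arrays gave -0.58 to -0.26, with -0.26 both without knockout replicate 3 and without control replicate 2; relative to the median miRNA it was -0.67 to -0.36 over all alternatives. The log2 ratio difference kept its sign in all 27 (-0.62 to -0.33, also its range when single arrays were left out). The exact permutation p was 0.2 to 0.4 where a test could be run. With 1 array left out, 0.2 is the smallest p this test can give. It was reached without knockout replicate 2 and without control replicate 3, where the groups did not overlap. With 2 arrays per genotype the smallest is 0.333. The miR-222 difference changed sign with the 75th percentile over all mouse probes (-0.14), no scaling (-0.43), gene-level totals (-0.0803) and within slide column 2 (-0.0011), and spanned -0.0502 to 0.0973 when single arrays were left out; relative to the median miRNA it became 0.00765 with quantile scaling, 0.0507 in the series matrix and 0.0298 with no filter on dim miRNAs. Its probes spanned -0.0502 to 0.0973 (A_54_P2644) and -0.0446 to 0.128 (A_54_P2643) then, with the lowest values without knockout replicate 1; without control replicate 3 they stood at -0.0223 and -0.0122. The correlation of the pair was -0.22 with quantile scaling and 0.02 to 0.90 when single arrays were left out. The cause of these changes was not tested. No alternative called any miRNA, while miRNAs at an unadjusted p under 0.05 numbered 1 to 30 (30 with normexp, 26 with no scaling, 13 with a replicate block). Deviations from the group means correlated at 0.17, -0.07 and 0.37 between arrays of the same number, and not every array correlated best with its own number, so the number was not taken as a pair. By number, knockout minus control of miR-221 was -0.51, -0.34 and -0.36 in replicates 1, 2 and 3. For miR-222 it was 0.21, -0.12 and -0.0011. With the replicate block, limma gave unadjusted p = 0.0372 and adjusted p = 0.485 for miR-221, and adjusted p = 0.953 for miR-222. The log2 ratio gave p = 0.25, the smallest an exact sign-flip test of 3 numbers allows.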
